A study of Mus musculus with 6 samples.

Results

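The regions described here are the 4260 places in the mouse genome at which ESRRB binding was called in naive embryonic stem cells and again at both times after the naive culture conditions had been removed. ESRRB was mapped by ChIP-seq, in which DNA fixed to a protein is pulled down with an antibody and sequenced, in E14, a blastocyst-derived mouse embryonic stem cell line. Cells were grown on gelatin in N2B27 medium with 2iL, a mixture of the GSK3 inhibitor CHIR99021 (3 µM), the MEK inhibitor PD0325901 (1 µM) and LIF, or were moved to N2B27 alone and collected 48 h or 96 h later. All libraries came from this line, with chromatin fixed in formaldehyde, and each condition had 1 antibody library and 1 input library. The inputs were not used here. Every interval of the 3 lists was pooled, intervals that overlapped by at least 1 bp were merged, and merged regions with an interval from each list were kept, which was 22.9% of 18634 merged regions. They are called shared regions below. The calls in the 3 lists chose them, so their folds are given as descriptions with no test. A single library stood for each condition, so conditions could not be tested against each other either.

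ESRRB is an orphan nuclear receptor that binds DNA mostly as a monomer at an extended receptor motif. In naive embryonic stem cells it works with NANOG, KLF and TFCP2L1 factors and downstream of GSK3 inhibition, and it falls away as cells leave the naive state. Its relatives ESRRA and ESRRG are known as regulators of mitochondrial and energy genes in other tissues.

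At promoters, the sequence under the shared regions can be read directly. Of the shared regions, 98 promoter windows (250 bases before to 50 after a listed start, RefSeq, build GRCm38.p6, which has the mm10 coordinates) held the 2iL summit of a shared region, and 34 of them carried the receptor motif AAGGTCA on either strand. The 8 stretches that follow are shown because their regions had the highest lowest fold over the 3 libraries among motif-bearing promoters with the summits of all 3 libraries inside the window and a stretch that lies before the gene start. They were chosen after their values were seen. Each is 80 bases, 5′ to 3′ on the strand of the gene, with the receptor motif in capitals. It reads AAGGTCA where it lies on the gene's strand and TGACCTT where it lies on the opposite one.
Eno1 (chr4:150236508-150236587, plus strand): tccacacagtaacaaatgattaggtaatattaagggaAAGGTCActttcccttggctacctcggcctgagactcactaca
Trap1 (chr16:4077911-4077990, minus strand): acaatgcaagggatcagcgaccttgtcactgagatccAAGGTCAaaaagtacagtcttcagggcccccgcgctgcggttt
Atp5g3 (chr2:73911336-73911415, minus strand): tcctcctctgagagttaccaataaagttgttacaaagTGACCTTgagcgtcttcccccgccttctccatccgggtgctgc
Klk1 (chr7:44225117-44225196, plus strand): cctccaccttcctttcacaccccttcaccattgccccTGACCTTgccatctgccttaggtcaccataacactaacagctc
Ak1 (chr2:32628263-32628342, plus strand): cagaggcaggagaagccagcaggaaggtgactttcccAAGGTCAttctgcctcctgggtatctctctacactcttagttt
Fbxo44 (chr4:148158909-148158988, minus strand): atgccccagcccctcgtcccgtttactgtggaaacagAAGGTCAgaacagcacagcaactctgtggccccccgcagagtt
Micos10 (chr4:139131157-139131236, minus strand): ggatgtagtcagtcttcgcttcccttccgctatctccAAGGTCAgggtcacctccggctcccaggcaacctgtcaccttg
Cerk (chr15:86186143-86186222, minus strand): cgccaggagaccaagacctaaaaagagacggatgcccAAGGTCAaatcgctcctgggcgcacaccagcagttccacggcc

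A further 5 stretches are shown because, with that of Atp5g3 above, they hold the extended motif TCAAGGTCA, the longer form that ESRRB is known to prefer. Capitals again mark the 7 bases of the receptor motif, and the TC (or, on the opposite strand, GA) of the extended form stands beside them in lower case. The extended motif in the window of Psmc3ip, the remaining one of 7, is named only.
Timm8b (chr9:50603770-50603849, plus strand): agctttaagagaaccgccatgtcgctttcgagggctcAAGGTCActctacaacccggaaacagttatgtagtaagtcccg
Clec2d (chr6:129180464-129180543, plus strand): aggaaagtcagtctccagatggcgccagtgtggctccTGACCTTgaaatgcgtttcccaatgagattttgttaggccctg
Msrb2 (chr2:19371482-19371561, plus strand): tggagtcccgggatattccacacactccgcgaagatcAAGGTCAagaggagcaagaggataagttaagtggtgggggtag
Aptx (chr4:40703009-40703088, minus strand): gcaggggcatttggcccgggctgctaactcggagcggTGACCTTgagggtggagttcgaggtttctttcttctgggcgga
Nfkbid (chr7:30421557-30421636, plus strand): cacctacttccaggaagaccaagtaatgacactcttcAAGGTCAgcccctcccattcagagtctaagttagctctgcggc

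The receptor motif was found under 34 of 98 windows of shared regions (34.7%, exact 95% interval 25.4 to 45.0) and 24 of 132 windows of regions called in 2iL alone (18.2%, 12 to 25.8), against 4.08% of all 21263 listed promoters. Regions called in 2iL and at 48 h but not at 96 h had it in 12 of 39 windows (30.8%, 17.0 to 47.6), and those called in 2iL and at 96 h but not at 48 h in 4 of 16 (25%, 7.27 to 52.4). The extended motif, which contains the receptor motif, was in 7 of 98 windows of shared regions (7.14%, 2.92 to 14.2). None of 39 windows called in 2iL and at 48 h (exact upper limit 9.03%) and none of 132 called in 2iL alone (2.76%) held the extended motif. It was in 1 of 16 windows called in 2iL and at 96 h (6.25%, 0.158 to 30.2). It was in 0.334% of all listed promoters. The intervals of the shared and the 2iL-alone windows overlap slightly for the receptor motif. They cover counting error only.

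By strength, the receptor motif had a higher share above the weakest 20% of regions for shared windows and for those of 2iL alone, with overlapping intervals, and about the same share for those called in 2iL and at 48 h. Among windows whose region lay above the weakest 20% of 2iL regions by fold (a 2iL fold over 4.45), the receptor motif was in 32 of 82 shared windows (39.0%, 28.4 to 50.4), 7 of 23 windows called in 2iL and at 48 h (30.4%, 13.2 to 52.9) and 14 of 52 windows of 2iL alone (26.9%, 15.6 to 41.0). In the weakest 20% it was in 2 of 16 shared windows (12.5%, 1.55 to 38.3), 5 of 16 called in 2iL and at 48 h (31.2%, 11 to 58.7) and 10 of 80 windows of 2iL alone (12.5%, 6.16 to 21.8). Median GC content was 60.5% in shared windows and 63.3% in those of 2iL alone, against 56.3% over all listed promoters, and its part in the motif shares was not tested.

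Shared promoters with the motif had higher median folds than those without it. In the 3 libraries, in order of time, the 34 with the receptor motif had median folds of 8.41, 6.29 and 6.42, and the 64 without it 5.72, 4.44 and 3.98. The summits of all 3 libraries lay inside the window in 31 of the 34 and 44 of the 64. Some later folds thus belong to positions outside the searched sequence. Fold is the reads at the summit over the local background, with 1 added to each. The middle of the nearest motif lay a median of 40.5 bases from the 2iL summit, 44 from the 48 h summit and 41.5 from the 96 h summit. Shared promoters without these letters include some of the strongest, such as that of Ldhb, a lactate dehydrogenase subunit gene, with folds of 15.9, 24.2 and 24.9. The highest 48 h and 96 h summits of the Ldhb region lay at -3708 and -3711 relative to the start, whereas the 2iL summit lay within the window. Only the 2iL fold of Ldhb is thus that of the promoter. The Zfp42 promoter, that of the naive marker REX1, held a shared region with no receptor motif and folds of 10.9, 6.41 and 7.00.

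The region at Eno1, a glycolytic enzyme gene, had 296 reads at its 2iL summit, 410 at the 48 h summit and 317 at the 96 h summit, and folds of 17.5, 14.1 and 15.6. Its motif is centred at position -160 relative to the start, and the summits lay at -11, -4 and 0. At Atp5g3, which encodes a subunit of the mitochondrial ATP synthase, 217, 321 and 272 reads gave folds of 13.8, 10.3 and 15.0, and the 2iL summit lay 4 bases from the middle of the motif. Trap1 encodes a mitochondrial chaperone, and its promoter region had folds of 14.3, 10.9 and 12.1. At Micos10, a gene for a protein of the inner mitochondrial membrane, 166, 233 and 156 reads gave folds of 12, 6.60 and 12.1. At Ak1, an adenylate kinase gene, 156, 179 and 95 reads gave 14.5, 8.05 and 7.43. Timm8b, a mitochondrial import gene with the extended motif, had 5.90, 6.33 and 6.89. These genes were named after their values were seen. How common energy genes are among the motif-bearing promoters was not counted. Of the first 8 printed, Klk1 had folds of 20.6, 18.9 and 10.1, Fbxo44 6.8, 6.83 and 6.81, and Cerk 10.8, 7.13 and 6.32.

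The other printed promoters with the extended motif had these values. Nfkbid had folds of 8.59, 4.25 and 2.84, Msrb2 5.82, 4.66 and 3.62, and Aptx, a DNA repair gene, 4.49, 3.35 and 3.43. Clec2d had 4.66, 8.25 and 7.18. Nfkbid was above the median 2iL fold of shared regions (7.63), and Clec2d above their medians at 48 h and 96 h (6.82 and 5.72).

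Motifs of other factors of stem cells were in shared promoters at shares whose intervals include that of all promoters. The octamer ATGCAAAT, bound by OCT4, was in 2 of 98 windows (2.04%) against 1.66% of all promoters, the KLF motif CCACACCC in 6 (6.12%) against 3.63%, and the STAT motif TTCNNNGAA in 6 (6.12%) against 7.69%. The E box CACGTG was in 12 (12.2%, 6.49 to 20.4) against 7.84%. The TFAP2 motif GCCNNNGGC was in 21 of 98 shared windows (21.4%, 13.8 to 30.9), 19 of 39 windows called in 2iL and at 48 h (48.7%, 32.4 to 65.2), 3 of 16 called in 2iL and at 96 h (18.8%) and 38 of 132 of 2iL alone (28.8%), against 19.9% of all promoters. Both strands were searched for each motif, and letters that are not in a window say nothing of binding by the factor.

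**Figure D1:**
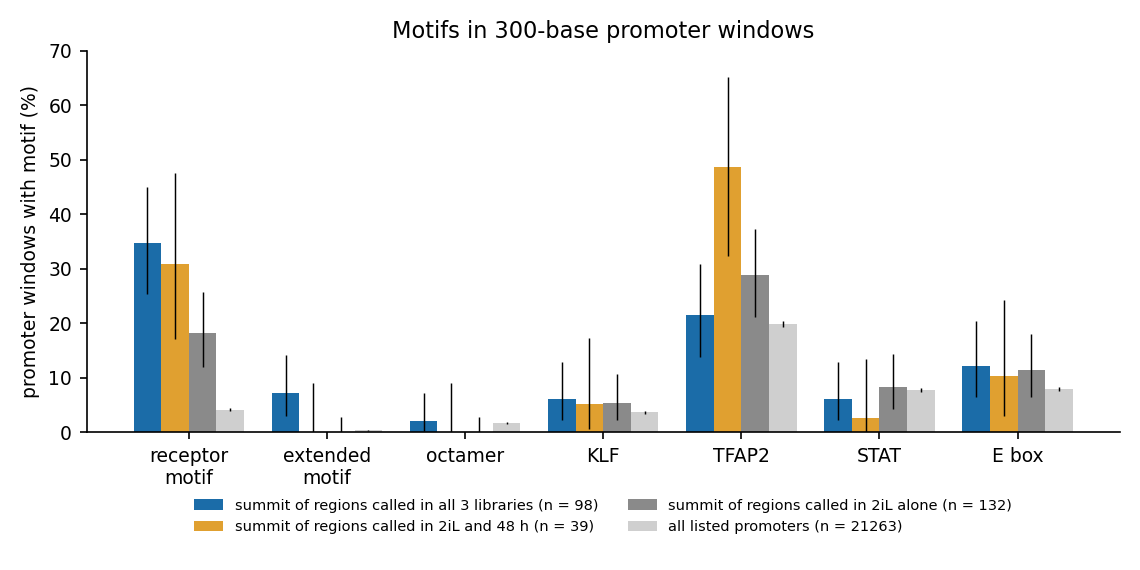
Share of 300-base promoter windows that hold each motif (y axis, percent), for windows with the 2iL summit of a shared region, of a region called in 2iL and at 48 h, or of a region called in 2iL alone, and for all listed promoters. Bars are shares and lines exact 95% intervals (counting error only). The receptor motif is at 34.7%, 30.8% and 18.2% in the 3 sets, against 4.08% of all promoters.

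The shared regions were the stronger part of each list, which the rule favours. In the 2iL, 48 h and 96 h libraries their median fold was 7.63, 6.82 and 5.72, with medians of 74, 104 and 56 reads at the summit. Regions called in 2iL and at 48 h had median folds of 6.05 and 4.66, those called in 2iL and at 96 h 5.46 and 3.94, and those called in 2iL alone 5.19. Shared regions held 31.7% of the 13767 regions of the 2iL list, 39.6% of the 10970 at 48 h and 62.8% of the 7018 at 96 h. The lowest background in the files, which follows depth, was 5.04, 8.09 and 5.84 reads, and total reads per library were not used here. Shared regions had a median width of 1495.5 bp (285 to 8390) and covered 7.11 Mb. In 4002 of them each library gave exactly 1 region.

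Some shared regions were near the edge of the authors' lists. The authors' score is capped at 1000, and 334 shared regions (7.84%) had a score under 600 in at least 1 library, while 1872 (43.9%) stood at the cap in all 3. Shared regions with a score under 600 had a median fold of 4.29 for 2iL (102 regions), 3.66 for 48 h (69) and 3.58 for 96 h (185). A region just outside is one that a single list missed, such as the 2611 called in 2iL and at 48 h only.

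In most shared regions the summits lay close together over the 3 libraries, which the rule of overlap favours. No expected distance was computed. The highest summits of a shared region lay a median of 23 bp apart between 48 h and 2iL, 29 bp between 96 h and 2iL and 25 bp between 96 h and 48 h. All 3 summits fell within 100 bp of each other in 3552 shared regions (83.4%, 82.2 to 84.5). Stronger regions were placed more tightly: the median spread over the 3 libraries was 29 bp in the strongest 20% by 2iL fold and 56 bp in the weakest 20%. Summits over 500 bp apart were found in 170 regions between 48 h and 2iL, 188 between 96 h and 2iL and 113 between 96 h and 48 h.

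The order of strength was kept in part. Across the 4260 shared regions, Spearman's rho of fold was 0.54 between 48 h and 2iL, 0.47 between 96 h and 2iL and 0.68 between 96 h and 48 h. These are descriptions over regions of the same libraries, which share depth and local background. The log2 ratio of folds had a median of -0.17 and an SD of 0.60 for 48 h over 2iL, -0.37 and 0.63 for 96 h over 2iL, and -0.19 and 0.50 for 96 h over 48 h. Counting error of the reads at the summit alone would give SDs of 0.23, 0.26 and 0.25. These leave out the error of the local background, so the spread beyond counting was not measured. Variation between cultures could not be measured with 1 library per condition.

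**Figure D2:**
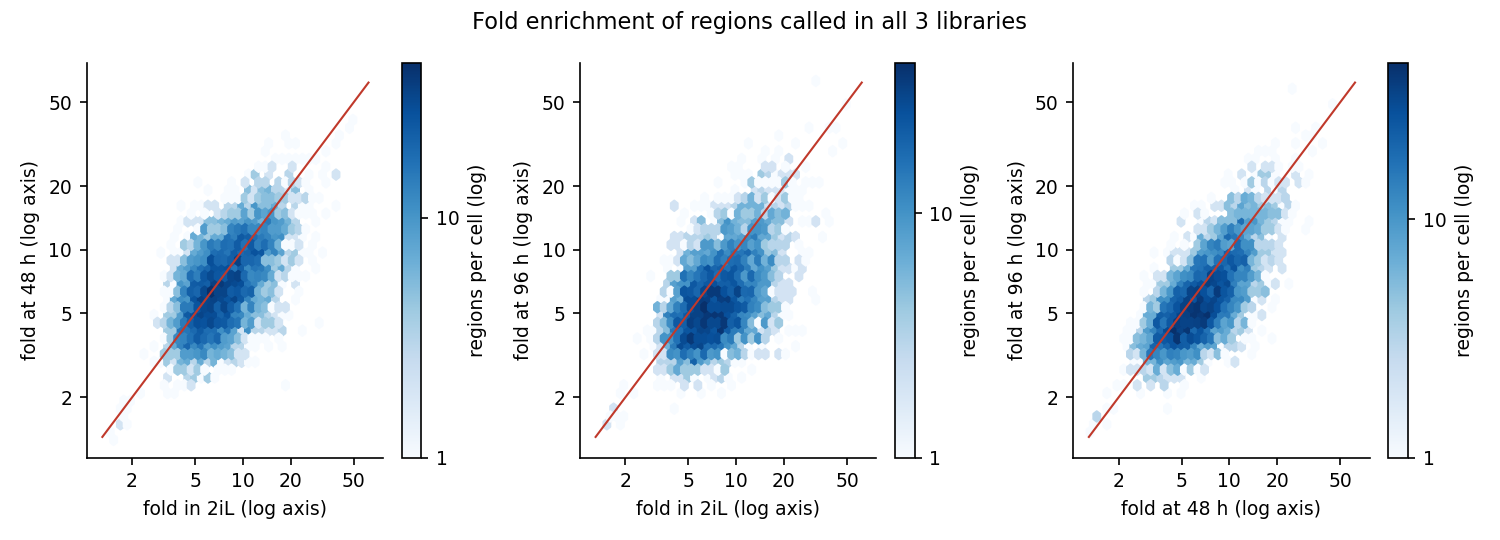
Fold of each of the 4260 shared regions in pairs of libraries (log axes, no unit), as counts of regions per hexagonal cell. The red line marks equal folds. The cloud is narrowest between 48 h and 96 h (rho 0.68) and wider between 2iL and 96 h (rho 0.47).

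The library with the highest fold was 2iL for 2303 shared regions (54.1%), 48 h for 1283 (30.1%) and 96 h for 674 (15.8%). A total of 321 shared regions (7.54%) were in the strongest 20% in every library, with median folds of 15.2, 14.4 and 14.0, and 210 were in the weakest 20% in every library. In the strongest 20% in 2iL but at neither later time were 311, with median folds of 13.4, 7.41 and 5.69. The strongest 20% of both 48 h and 96 h, though not of 2iL, had 206 in common, with medians of 9.13, 12.2 and 10.8.

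Among the 12 shared regions with the highest lowest fold was one inside Nrip1, which encodes a corepressor of nuclear receptors. It had 294, 416 and 347 reads in order of time, with folds of 39.4, 32.8 and 36.2. A region 24409 bp from Kat6b, a histone acetyltransferase gene, had 273, 350 and 225 reads and folds of 26.4, 26.8 and 20.7. A region 62017 bp before Spred2, an inhibitor of the RAS to ERK pathway, had 144, 251 and 159 reads and folds of 20.2, 26.2 and 21.0. Its exact Poisson intervals of 17.1 to 23.8, 23.0 to 29.6 and 17.9 to 24.5 overlap.

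The remaining strongest regions included one that was highest at 96 h. Inside Capn2, a calpain protease gene, 411, 465 and 423 reads gave folds of 32.4, 24.6 and 60.9, over backgrounds of 11.7, 17.9 and 5.96 reads. The reads were thus similar while the background was lowest at 96 h. The other 8 lay nearest Pld1, Pdgfa, Myrip, Tsr2, Ccdc138, Tbc1d1, Sptlc2 and Armc9, with lowest folds of 20 to 42.8. Summits of the 12 lay within 28 bp of each other over the 3 libraries.

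At the other end, 11 shared regions had a fold under 3 in all 3 libraries. They had 161 to 434 reads at the summit in 2iL, 236 to 478 at 48 h and 196 to 468 at 96 h, over local backgrounds of 83.8 to 238.4, 130.9 to 326.5 and 106.0 to 295.5 reads. The median background of all shared regions was 8.69, 14.3 and 8.04 reads. The 5 lowest lay nearest Rpusd4, Lrrc4c, Kctd16, Axin2 and Esp38, with folds of 1.31 to 1.90. What raised the background there was not tested.

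The 10 shared regions whose rank climbed most between 2iL and 96 h were chosen by that change, so their values are descriptions. A region inside Kat6a, a relative of Kat6b, had 36 reads and a fold of 4.05 in 2iL (exact interval 2.87 to 5.56), 72 and 7.73 at 48 h, and 70 and 10.4 at 96 h (8.11 to 13.1). Inside Cadm1, a cell adhesion gene, 54, 97 and 98 reads gave folds of 4.55, 6.07 and 14.5, over backgrounds of 11.1, 15.2 and 5.84 reads. A region 96261 bp from Adgrl2, an adhesion receptor gene, had 59, 110 and 105 reads and folds of 4.50, 6.87 and 13.6. One inside Nrg1, which encodes the growth factor neuregulin, had 42, 143 and 122 reads and folds of 4.14, 6.65 and 11.2. From 48 h to 96 h the background fell from 15.2 to 6.78 reads at Adgrl2 and from 20.7 to 9.94 at Nrg1. The rise in fold from 48 h to 96 h at Cadm1, Adgrl2 and Nrg1 thus came with a lower background and with reads that were similar or lower. Others lay at or nearest Zfp516, Gm41291, Lclat1, H2bc22 and Ywhaq. In each of the 10 the fold was lowest in 2iL and highest at 96 h.

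The 10 whose rank dropped most were chosen in the same way. A region inside Yap1, which encodes the effector of the Hippo pathway, had 76 reads and a fold of 12.7 in 2iL (10.1 to 15.9), 60 and 6.71 at 48 h, and 22 and 2.78 at 96 h (1.78 to 4.14). A region 12769 bp from Cd9, a tetraspanin gene, had folds of 18.5, 2.29 and 3.38, and one 3698 bp from Cdc7, a kinase gene of DNA replication, 15.1, 3.56 and 3.16. The summits of the Cdc7 region were spread over 1333 bp, so its folds do not all describe the same position. At the promoter of Emc4, a gene of the endoplasmic reticulum membrane complex, 102, 159 and 72 reads gave folds of 13.5, 7.16 and 3.19. The local background there was 6.62, 21.4 and 21.9 reads, so at 48 h the fold fell while the reads rose. The others lay at or nearest Cdc42ep3, Plekhh1, Pdzrn3, Ercc6l2, Kctd14 and Mad1l1. In 9 of the 10 the fold was lowest at 96 h, and Cd9 was the exception.

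**Figure D3:**
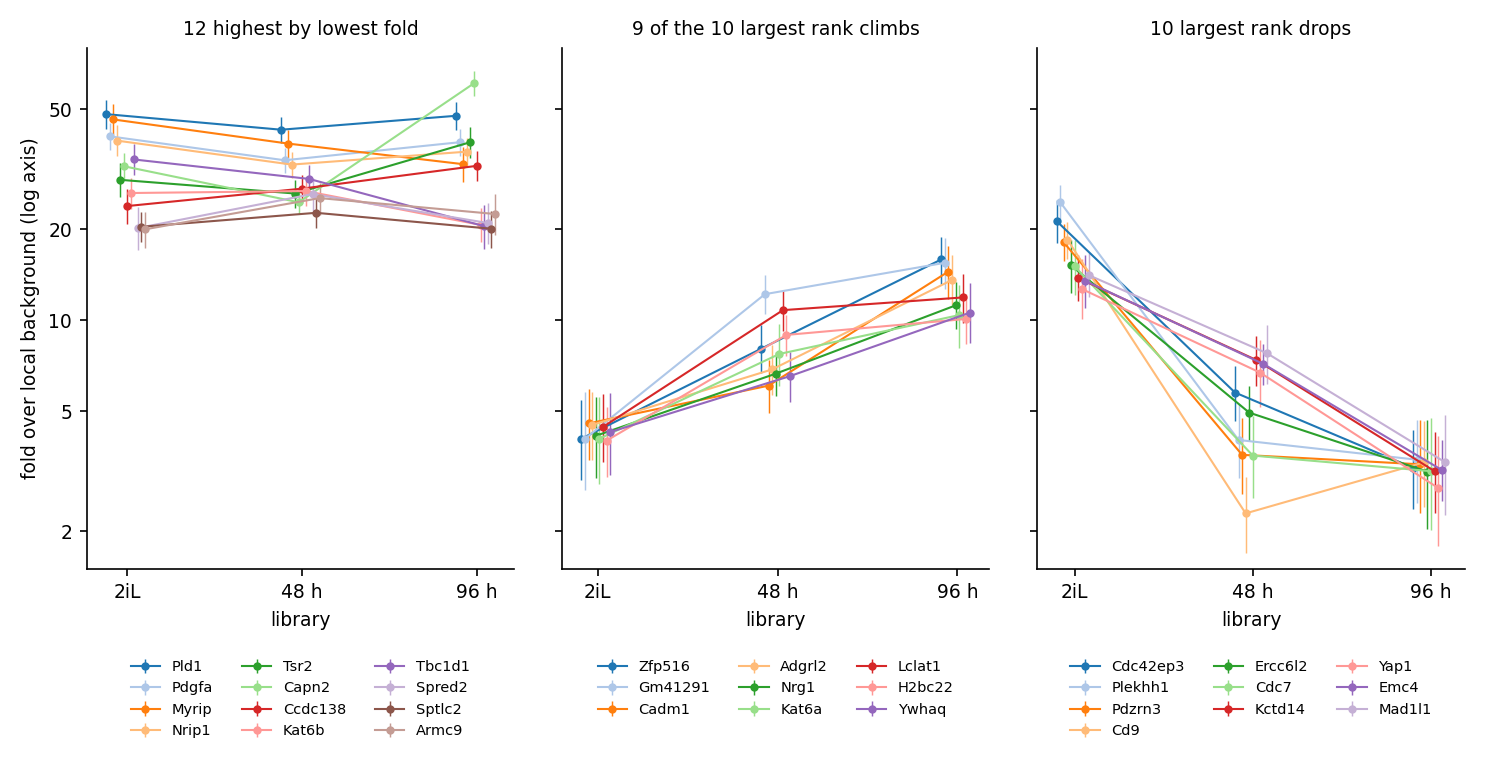
Fold over local background (y axis, log) in the 2iL, 48 h and 96 h libraries for the 12 shared regions of highest lowest fold, 9 of the 10 with the largest climbs of rank between 2iL and 96 h and the 10 with the largest drops, labelled by nearest gene. Lines through the points are exact 95% Poisson intervals of the reads. Pld1 stands at 48.2, 42.8 and 47.6, and the Cd9 region at 18.5, 2.29 and 3.38.

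The share of shared regions at gene starts was above that of regions called in 2iL alone and below that of regions called in 2iL and at 96 h, whose interval overlaps. The 2iL summit was within 1 kb of a listed protein-coding start in 439 of 4143 shared regions (10.6%, 9.67 to 11.6), in 172 of 2533 called in 2iL and at 48 h (6.79%, 5.84 to 7.84), in 64 of 477 called in 2iL and at 96 h (13.4%, 10.5 to 16.8) and in 425 of 6072 called in 2iL alone (7.00%, 6.37 to 7.67). The rule used no gene position. Of the 439, 220 (50.1%) lay upstream of the start, at a median distance of 299 bp on either side. Listed starts cover 17492 of 21887 protein-coding genes (79.9%), and none for the chromosome of 117 shared regions, which are not counted in these shares. By gene span, 39.1% of all 4260 lay inside a gene over 1 kb from its ends and 15.9% over 50 kb from any gene.

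As a ratio, the difference between shared regions and those of 2iL alone was largest among strong regions. When all merged regions called in 2iL were split into 5 equal groups by 2iL fold, the strongest group (fold 8.73 to 48.2) had a start within 1 kb in 124 of 1581 shared regions (7.84%, 6.57 to 9.28), 10 of 462 called in 2iL and at 48 h (2.16%, 1.04 to 3.94) and 7 of 531 of 2iL alone (1.32%, 0.532 to 2.70). In the weakest group (fold 1.35 to 4.45) the shares were 18.1% (14.1 to 22.6), 14.0% (10.8 to 17.6) and 14.0% (12.4 to 15.7). The start share was thus lower in the strongest group than in the weakest in each of these sets.

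Reads and background differed between these sets as well. In the strongest group the median was 118 reads for shared regions at starts and 117 for those elsewhere, and 107 and 82.5 for 2iL alone. The median folds were 10.9 and 11.7 for shared regions, and 11.1 and 10.4 for 2iL alone. The median background there was 9.86 reads at starts and 8.63 elsewhere for shared regions, and 9.11 and 6.77 for 2iL alone, and its part in the start shares was not tested. Splitting by 2iL reads gave 10.7% (9.25 to 12.2) for shared regions and 1.76% (0.710 to 3.59) for 2iL alone in the group with the most reads, and splitting by 2iL p gave 9.34% and 1.81% in the group with the lowest p. In the group with the fewest reads the order was turned round, at 4.11% (1.90 to 7.66) for shared regions and 6.73% (5.67 to 7.93) for 2iL alone, with overlapping intervals. In the group with the highest p the shares were 9.38% and 11.2%. These splits were added after seeing the data.

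**Figure D4:**
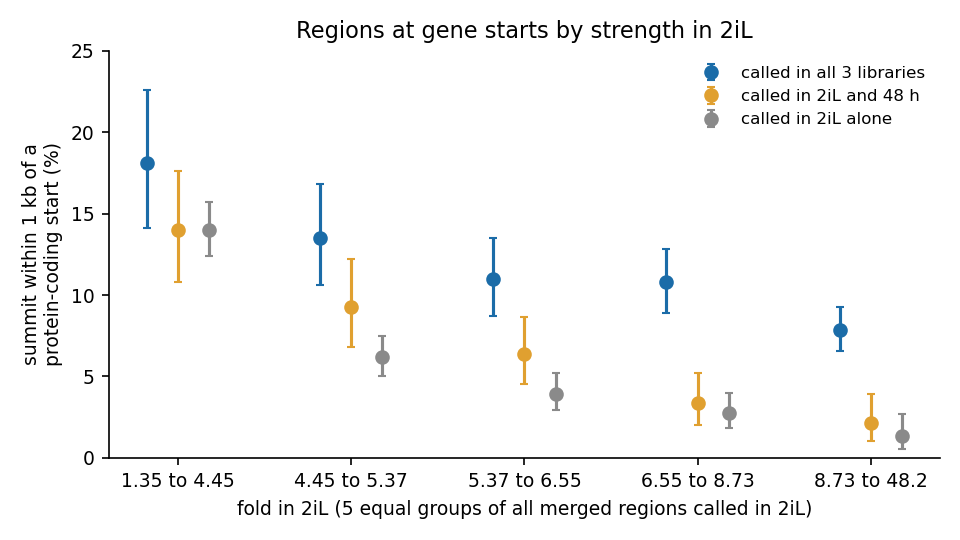
Share of regions with the 2iL summit within 1 kb of a listed protein-coding start (y axis, percent), in 5 equal groups of all merged regions called in 2iL by their 2iL fold (x axis), for shared regions, regions called in 2iL and at 48 h, and regions called in 2iL alone. Points are shares and bars exact 95% intervals. In the strongest group the shares are 7.84%, 2.16% and 1.32%.

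Within the shared regions the start share ran against fold. It was 5.46% (4.01 to 7.24) in the strongest 20% by lowest fold and 19.9% (17.2 to 22.8) in the weakest 20%. By 2iL reads it did not, but those groups are the 5 equal groups of all merged regions called in 2iL. There the start share of shared regions was 10.7% in the group with the most reads and 4.11% in that with the fewest. It was highest, at 13.1%, in the group next to the one with the most reads. By change of rank, 7.24% (5.57 to 9.22) of the 20% that climbed most between 2iL and 96 h and 10.7% (8.70 to 13.0) of the 20% that dropped most lay at starts, with overlapping intervals.

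The 10 shared regions of highest lowest fold within 1 kb of a gene end in all 3 libraries were taken next. A gene end is either end of the gene span, so these regions need not lie at a start. The 2iL summits at Cdkn1a and Asmt lay 7164 and 4881 bp downstream of the nearest listed start, whereas that at Eno1 lay 11 bp upstream. At Cdkn1a, which encodes the cell cycle inhibitor p21, 100, 148 and 100 reads gave folds of 14.1, 16.4 and 14.1. At Gjc1, a connexin gene, folds were 17.0, 13.0 and 14.4, and at Smg5, a gene of nonsense-mediated mRNA decay, 16.7, 13.7 and 15.3. Asmt had the highest fold of the 10 in 2iL, at 39.1, and had 16.4 at 48 h and 29.6 at 96 h. The others were Eno1, Cabcoco1, Etfrf1, Nyx, Fam163a and Tm7sf3.

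Genes of the pluripotency network were counted next. A shared region lay within 50 kb of 6319 of 21887 protein-coding genes (28.9%), and of 17 of 20 naive factors, 8 of 12 core factors and 12 of 20 formative factors. Regions called in 2iL alone, which were more numerous, lay within 50 kb of 35.8% of protein-coding genes, and of 16 naive, 6 core and 7 formative factors. They also lay near 14 of 20 energy genes, 13 of 24 receptors and cofactors and 14 of 20 chromatin regulators. The lists were not matched with other genes on length or on gene density, which also set how often a region is near. They were picked for their known roles in this network, so no test is given. A region counted for a gene may lie anywhere within 50 kb of it, and no link of region to gene was tested.

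Among the naive factors, Esrrb itself had 4 shared regions, the strongest with 260, 347 and 164 reads and folds of 17.9, 17.8 and 19.9. Zfp57, a zinc finger gene that protects imprints, had a region 27598 bp away with folds of 18.4, 16.4 and 23.2, and Tfap2c one 24525 bp away with 20.7, 17.5 and 14.4. Klf2 had 15.6, 16.4 and 12.3 at 12701 bp, and Zfp42 10.8, 11.7 and 17.4 at 14048 bp. Jam2, an adhesion gene, had 13.2, 9.66 and 13.5. Klf4, Dppa3 and Gbx2 had none within 50 kb. Nanog had 2, and the one with the higher lowest fold, 47350 bp away, had 4.77, 4.83 and 2.82. The other, at the Nanog promoter, had 5.80, 5.29 and 2.30.

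Core factors with strong shared regions were Trim28, a corepressor of transposons (16.5, 14.9 and 14.9), Zfp281 (9.78, 13.5 and 10.1) and Sox2, whose region 16211 bp away had 8.86, 11.3 and 13.0. Sall4 had 6.81, 8.38 and 7.24 at 19165 bp, and Rif1 10.1, 16.2 and 6.57 at 17022 bp. Pou5f1, which encodes OCT4, had 8.20, 8.48 and 5.31 at 20138 bp. Lin28a, Dppa2, Dppa4 and L1td1 had none.

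Formative factors, which are switched on as cells leave the naive state, had regions that stood higher among the shared ones at the later times. The median rank by fold of the 18 shared regions near them was 2560 of 4260 for 2iL, 1103 for 48 h and 1405 for 96 h, where rank 1 is the strongest. Their median folds were 6.75, 9.39 and 7.06, and the difference between times was not tested. The higher standing was not particular to this list. Median ranks were 1729, 1352 and 1029 near chromatin regulators, and 1635.5, 1362 and 1425.5 near LIF, WNT and FGF pathway genes. They were 1766, 1572 and 1838 near naive factors, 2549.5, 2911.5 and 2750 near core factors, and 2152, 2153 and 1861 near receptors and cofactors. Tcf15 had folds of 18.9, 15.3 and 15.2 at 28485 bp, and Otx2 14.9, 15.0 and 16.0 at 1627 bp. Lef1, a WNT effector, had 21.9, 12.4 and 15.5 at 22139 bp. Etv4 and Etv5, targets of ERK signalling, had 13.4, 11.8 and 15.4, and 11.8, 10.6 and 11.3. Dnmt3a, a de novo DNA methyltransferase gene, had 11, 12.8 and 9.79, and Grhl2, a factor of epithelial enhancers, 4.24, 8.36 and 7.61. Fgf5, Pou3f1, Dnmt3b, Zic2, Sox3, Foxp1, Sall2 and Lin28b had none.

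Of 20 energy genes, 18 had a shared region within 50 kb, and Mdh2 and Cycs had none. With lists of equal length by fold, 11 energy genes and 15 naive factors had one, and within 100 kb 18 and 19, so the order of these lists turns with the setting. The median rank of their 22 shared regions was 2170 for 2iL, 3019 for 48 h and 2582 for 96 h, with median folds of 7.54, 5.29 and 5.08. Ndufs1, a complex I subunit gene, had folds of 8.61, 10.3 and 13.0. Atp5a1, an ATP synthase subunit gene, had 137, 214 and 127 reads and folds of 19.0, 9.33 and 8.58. Sdha, of complex II, had 216, 214 and 131 reads and folds of 14.9, 6.58 and 8.85. Cox5a, of complex IV, had 65, 91 and 60 reads and folds of 9.50, 4.33 and 3.57. At 48 h the reads at Atp5a1, Sdha and Cox5a were higher than in 2iL or nearly the same. Their folds were lower, so the local background was higher. Uqcrc1 had 8.17, 8.84 and 5.41. The Ogdh promoter itself held a shared region with the receptor motif at folds of 9.21, 7.07 and 4.77.

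Receptors and their cofactors had shared regions at 11 of 24 genes, and at 7 with lists of equal length. Esrra, the closest relative with a region, had 13.2, 9.50 and 9.51 at 285 bp from the gene. Ncoa3, which encodes a coactivator of ESRRB, had 6 shared regions within 50 kb, the strongest with 160, 306 and 233 reads and folds of 14.7, 18.2 and 30.1. Ncor1, a corepressor gene, had 9.96, 10.6 and 8.62, and Rarg 12.4, 8.16 and 6.59. At Thra, the thyroid hormone receptor alpha gene, 82, 105 and 47 reads gave folds of 11.5, 3.46 and 3.71. The reads at Thra were higher at 48 h than in 2iL while the fold was lower, so the local background was higher. Esrrg and Ppargc1a were among the 13 with none.

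Pathway genes of LIF, WNT and FGF had shared regions at 10 of 22. The LIF receptor genes Lifr and Il6st had folds of 18.5, 19.9 and 15.6, and 10.6, 13.2 and 17.1, and Socs3, the feedback inhibitor of the same pathway, 15.4, 17.8 and 14.6. Sp5, a WNT target, had 12.7, 4.89 and 4.53. Spry2, an inhibitor of FGF signalling, had 4 shared regions, the strongest at 8.34, 11 and 9.13, and Spred2 had 5.

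Chromatin regulators had shared regions at 9 of 20, and at 15 within 100 kb. Jarid2, a PRC2 cofactor, had 5 within 50 kb, and Suz12 and Eed, PRC2 subunits, had folds of 9.78, 11 and 11.2, and 6.28, 11.5 and 8.27. Tet1, a 5-methylcytosine oxidase gene, had 15.8, 19.9 and 13.5, Arid1a, of the BAF complex, 17.7, 10.4 and 15.3, and Crebbp, an acetyltransferase gene, 14.3, 10.9 and 12.1. The Crebbp region is the one at the Trap1 promoter printed above, since the genes are neighbours. Only Eomes and Cdx2 of 16 germ layer factors, and Myl1 and Myh6 of 16 genes of other tissues, had a shared region, 12.5% in each list.

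**Figure D5:**
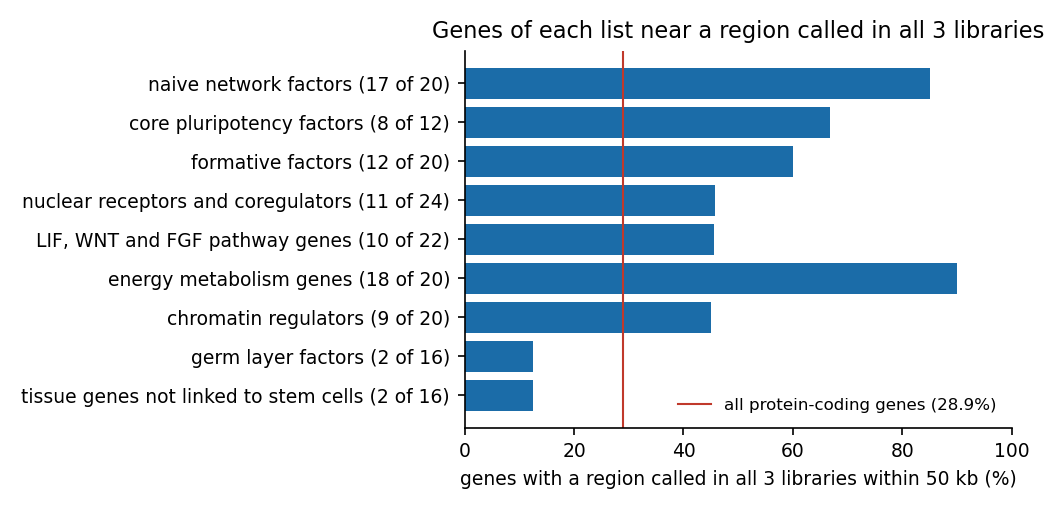
Share of the genes of each list with a shared region within 50 kb of the gene (x axis, percent, counts in brackets), with the 28.9% of all protein-coding genes as a line. The energy and naive lists stand highest, with 18 and 17 of 20 genes, and the germ layer and other-tissue lists lowest, with 2 of 16 each.

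Genes with the most shared regions were Gtf2ird1, Kazn, Magi1 and Sox5, with 8 each within 50 kb, then Fblim1, Pafah1b1 and Spen with 7. Another 9 genes had 6, among them Tfap2c, Ncoa3, Msi2 and Macf1. Sox5, which encodes a SOX factor, spans 953.9 kb and had all 8 inside it, with median folds of 11.6, 6.01 and 5.37. Gtf2ird1 spans 99.2 kb and had medians of 7.13, 9.17 and 6.86. Tfap2c spans 12.9 kb, had none inside, and had medians of 13.0, 9.58 and 10.0. Long genes have more room for regions, which these counts do not correct.

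Shared regions also lay in groups. Of 4260, 890 (20.9%, 19.7 to 22.1) had a shared neighbour within 20 kb, and 228 were in the 68 groups of 3 or more. Regions of 2iL alone, a set of 6277, gave 26.9%, and the 2611 called in 2iL and at 48 h 11.8%. These shares rise with the number of regions in a set. The largest group held 7 shared regions over 60.1 kb at one end of Jarid2 (chr13:44674549-44736165), with folds of 4.24 to 13.3 in 2iL, 4.03 to 13.5 at 48 h and 3.86 to 19.8 at 96 h. Groups of 5 lay at Ahdc1 and Wasf2 and at Spen and Fblim1, among others. By chromosome, shared regions made up 19.0% to 24.7% of merged regions on the autosomes and X.

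A group of 4 lay at the miR-290 cluster, the main microRNAs of mouse embryonic stem cells, which speed the passage from G1 to S phase. It was chosen after its values were seen. The cluster (chr7:3218626-3220841) has 8 listed hairpins. Its listed mature microRNAs with AAGUGC at bases 2 to 7 are shown, from RefSeq, with the seed (bases 2 to 8) in capitals, because they are the product of the locus that the shared regions surround.
mmu-miR-291a-3p (chr7:3218968-3218989, plus strand): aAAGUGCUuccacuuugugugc
mmu-miR-294-3p (chr7:3220691-3220712, plus strand): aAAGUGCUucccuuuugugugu
mmu-miR-295-3p (chr7:3220815-3220837, plus strand): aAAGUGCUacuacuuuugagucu
mmu-miR-290a-3p (chr7:3218674-3218697, plus strand): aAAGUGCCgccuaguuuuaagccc
mmu-miR-291b-3p (chr7:3219529-3219550, plus strand): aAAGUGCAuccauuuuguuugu

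miR-291a-3p, miR-294-3p and miR-295-3p share the seed AAGUGCU. The summit of the nearest shared region before the cluster (chr7:3216171-3218454) lay 927 bp ahead of the first hairpin, with 164, 265 and 180 reads and folds of 12.4, 13.1 and 12.7. The exact intervals were 10.6 to 14.4, 11.6 to 14.8 and 10.9 to 14.7, so the levels lay within counting error of each other, and the 3 summits within 18 bp. A region that starts inside the cluster and runs past it (chr7:3220753-3223115) had 7.28, 7.38 and 7.50. Upstream regions at chr7:3203623-3207791 and chr7:3210916-3214383 had 12.4, 11.8 and 9.97, and 3.24, 3.12 and 4.38. The summits of these upstream regions were spread over 2406 and 391 bp, so their folds do not all describe the same position. Of 1005 listed hairpins, 70 had a shared region within 10 kb.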

How the data were processed

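ESRRB ChIP-seq peak lists of 3 antibody libraries were used, 1 for each condition, and the 3 input libraries were not used here. Per the submitters' processing notes, bcl2fastq 2.20.0.422, BWA, SAMtools, Picard and MACS2 were used with build mm10. The sources used here do not say which tool did what, where the threshold lay or how the inputs served. Each score the authors deposited is capped at 1000 and otherwise follows a number in each peak name, which from the values is a rate of 0.05 or less as −log10. The fold that the authors deposited is the ratio of reads to local background at the summit. The authors deposited the Poisson p-value and the q-value as −log10.

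From fold and p together, whole reads were recovered for 100% of summits within 0.05 of a step. A region took the fold of its highest summit. Intervals were merged at 1 bp, with the same 4260 shared regions from bedtools 2.31.1 and from Python 3.11.15 code (pandas 2.3.3, scipy 1.17.1). Shares carry exact Clopper-Pearson 95% intervals and single folds exact Poisson intervals of the reads. These cover counting error only, and PCR copies are not told apart. The recovery of reads, merging, motif search and start distances were tested on simulated data. Genes, promoter windows, strands and microRNAs came from RefSeq, GRCm38.p6, and all 170 list entries matched.

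The shared regions, the gene lists and the rules were chosen with earlier results of these data known. Named regions were those of highest lowest fold, the largest climbs and drops of rank between 2iL and 96 h among regions in the strongest 20% of some library, those at a gene end in every library, the genes with most shared regions, and list genes by highest lowest fold. Exceptions are marked as chosen after their values were seen, and some regions that meet the rules are not reported here. The alternatives tried were the calling threshold, list length, overlap, merging, the summit used, distances, the reference points, the measure of strength and leaving out regions of low fold. Motifs were searched in promoter windows only, since no genome sequence was used, in place of windows around every summit.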

Additional observations from a re-analysis of the deposited data

How the results depend on the processing

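Of 128 values of 24 results under an alternative, 82 stayed within the interval of the value above, or within 1.5 times a count. Lists of equal length by fold, which keep only the strongest regions, gave 2835 shared regions, median folds of 9.18, 8.03 and 6.53, summit distances of 20, 25 and 21 bp, start shares of 8.24% for shared regions and 3.6% for 2iL alone (5.87% of the strongest shared regions), 19.7% of genes with a shared region nearby, 14.8% in groups and the receptor motif in 48.8% of windows. The median summit in place of the highest gave folds of 5.90, 5.53 and 4.91, and the nearest pair of summits distances of 21, 26 and 22 bp. The start shares of shared and 2iL-alone regions were 7.82% and 5.19% at 0.5 kb and 13.1% and 9.14% at 2 kb, and in the strongest group 5.50% for shared regions at 0.5 kb and 9.74% and 2.82% at 2 kb. With alternatives added after seeing the data they were 13.2% and 9.32% for gene ends and 12.8% and 8.88% for starts of every gene type, and 9.34% and 10.7% for the strongest shared regions split by p and by reads. Regions with exactly 1 interval per library gave 27.7% of genes and 19.3% in groups. Windows of 10 kb and 100 kb gave 13.8% and 41.5% of genes, and gaps of 10 kb and 50 kb gave 12.8% and 36.2% in groups. Of 45 list counts, 8 moved by over 1.5 times, 5 of them lower.

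The planned motif windows of 50 bp and 200 bp around each summit were not run, because only promoter windows had sequence. No paired analysis was possible because each condition has 1 antibody library, and leaving out a library leaves no shared region to define. Depth limits what a missing call means: an uncalled region is not shown to lack ESRRB, and the 3 lists differ in length and background.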
